A study of Mus musculus with 4 samples.

Results

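The matrix metalloproteinases (MMPs), the ADAM and ADAMTS proteases, the ADAMTS-like proteins and their inhibitors, the TIMPs, are described here across the stromal cells of the LATS1/2 KO small intestine. Members were taken by symbol: Mmp, Adam, Adamts, Adamtsl or Timp followed by a number, plus Adamdec1, without Adamts3 and Adamts14. Of 65 matching symbols, 61 had at least 1 unique molecular identifier (UMI, a tag that marks 1 captured transcript), out of 17406 genes with a UMI. They comprised 17 MMPs, 18 ADAMs, 16 ADAMTSs, 5 ADAMTS-like genes, 4 TIMPs and Adamdec1. Adam1b, Adam3, Adam7 and Mmp25 had 0 UMIs in every cell and were left out.

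MMPs are zinc enzymes that cut collagens, proteoglycans and other matrix proteins, and are made as inactive proenzymes. ADAMs are membrane proteases, several of which release growth factors and cytokines from the cell surface, while ADAMTS enzymes are secreted and cut proteoglycans, procollagens and microfibril proteins. TIMPs bind the active site of these enzymes and block it. In the intestinal villus, fibroblasts and smooth muscle cells around the lacteal, the lymphatic capillary, build and remodel this matrix.

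The series compared PDGFRb+ intestinal stromal cells of adult C57BL/6J mice with and without deletion of Lats1 and Lats2, the kinases that hold the coactivators YAP and TAZ out of the nucleus. The 1 library analysed was LATS1/2 KO 1w, from mice carrying the tamoxifen-dependent Pdgfrb-CreERT2, a tdTomato reporter and floxed Lats1 and Lats2 alleles, taken 1 week after tamoxifen. The WT and LATS1/2 KO 2w libraries were not analysed here, so every difference below lies between cells that all came from deleted mice, and tdTomato marks recombination of the reporter, not of Lats1 or Lats2 in each cell. Sorted cells were negative for CD45, CD31 and CD326, markers of immune, endothelial and epithelial cells. The library held 4108 cells with 46054627 UMIs, a median of 10726 UMIs per cell (1965 to 35727), and no barcode occurred more than once. Lats1 stood at 14.2 and Lats2 at 53.5 UMIs per 1000000 UMIs (counts per 1000000, CPM), the level used throughout. The kit tags the 3′ end of each transcript, so CPM needs no correction for length. With 1 library there was no replicate and no test. Ranges in parentheses after a value are exact 95% intervals and reflect the counting of UMIs alone. A member was called higher or lower when it differed at least 2-fold.

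The cells fell into 9 clusters, read here as classes, without any member among the variable genes. FB4-like cells (697 cells) met 5 of 5 FB4 markers such as Ackr4 and Grem1, vFB3-like cells (45 cells) 4 of 4 vFB3 markers such as Tacr1, smooth muscle (SMC)-like cells (77 cells) 6 of 6 and mural cell (MC)-like cells (69 cells) 7 of 7. Cluster 6 (205 cells) met 6 of 6 markers of FB5, including Sox6 and Bmp7, and 1 of 7 MC markers (Cspg4). The mural genes Kcnj8 and Abcc9, which are not on the MC list, were among its leading genes, so it is called by its number. The other 4 fibroblast clusters met at most 3 of 6 vFB1-2 markers and were called by the YAP/TAZ target Amotl2 and by Fos, an immediate early gene (IEG). They were YAP-low/IEG-low (901 cells, Amotl2 50.5 and Fos 238.5 CPM), YAP-high/IEG-low (716 cells, 191.6 and 105.3 CPM), YAP-low/IEG-high (712 cells, 71.8 and 2523 CPM) and YAP-high/IEG-high (686 cells, 285 and 1840 CPM). The names stand for the levels of Amotl2 and Fos alone. Of 7 YAP/TAZ targets, the marker rule was met for 1 (Cyr61) in YAP-high/IEG-high cells and for 0 in the other 3 of these clusters. Ajuba, Ctgf and Lats2 were higher in both YAP-high clusters than in both YAP-low clusters, Axl was lower (120.6 and 191.1 CPM against 218.1 and 233.7 CPM), and Ankrd1 had 0 UMIs in these clusters. Cyr61 was at 167.3 and 933.5 CPM in the YAP-high and 135 and 352.6 CPM in the YAP-low clusters (IEG-low, then IEG-high). FB4-like and MC-like cells also carried high IEGs, with 5 of 7 and 7 of 7 IEG markers met. The summed immune markers ranged from 7.51 CPM in FB4-like cells to 56.4 CPM in cluster 6, with 1 of 6 at 0 throughout the library. Epithelial markers summed to 0 to 22.8 CPM (2 of 5 at 0), endothelial markers to 0 to 10.6 CPM (1 of 4 at 0) and glial markers to 1.38 to 9.59 CPM (none of 3 at 0). Their part in the results was not tested.

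The 61 members held 347005 UMIs, or 0.753% of the library. Adamdec1 alone took 48.2% of these and the top 5 members took 75.8%. At least 1000 UMIs were found for 30 members, 9 had fewer than 1000 but at least 100, and 22 had fewer than 100. The stromal cells thus carried many family members, while most of the message was Adamdec1, Timp2, Mmp2, Mmp23 and Timp3.

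**Figure D1:**
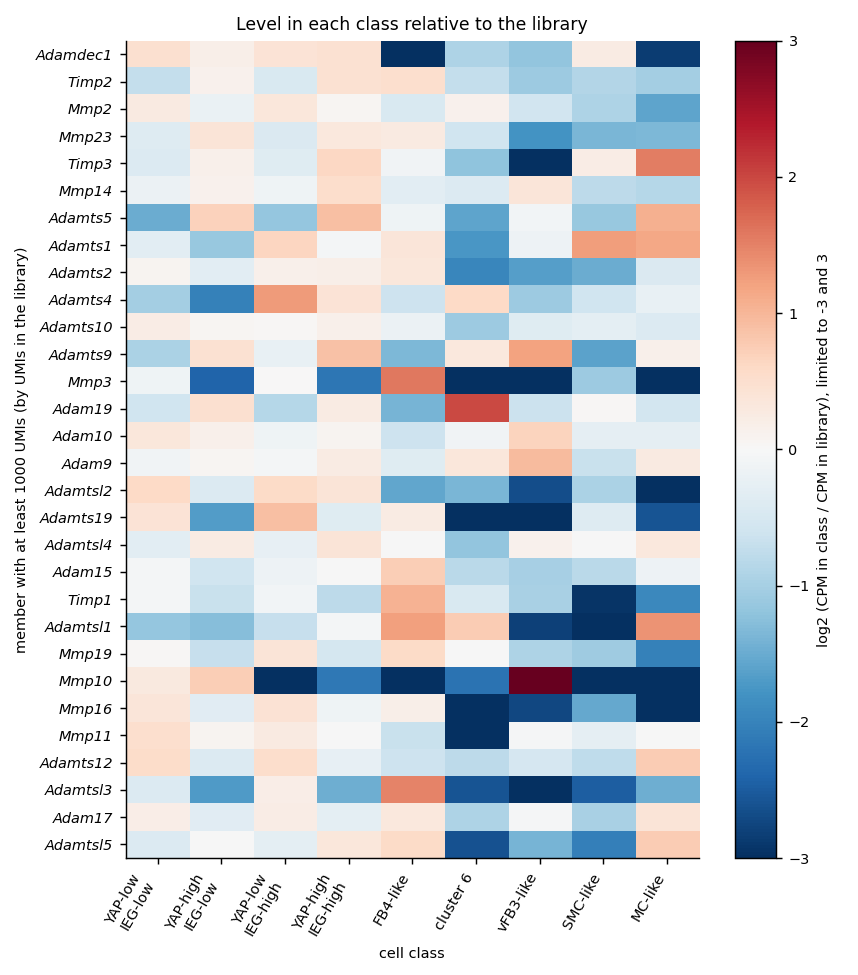
Levels of the members with at least 1000 UMIs in the 9 classes, as log2 of the class CPM over the library CPM. Values beyond -3 or 3 are drawn at these limits, as are the values of 0 for Adamts19 in vFB3-like and Mmp10 in MC-like cells, and Mmp10 in vFB3-like cells at 1059.5 CPM is the strongest rise plotted.

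Among the collagen-cutting and membrane MMPs, Mmp2 (gelatinase A, which cuts denatured and basement membrane collagen) was the most abundant. Its level was 473 CPM in YAP-low/IEG-low, 341 in YAP-high/IEG-low, 499 in YAP-low/IEG-high and 413 in YAP-high/IEG-high cells, 285 in FB4-like cells, 434 in cluster 6, 265 in vFB3-like, 207.5 in SMC-like and 132 CPM in MC-like cells. All classes carried Mmp2, and the contractile classes were at the low end. Mmp14, the membrane-type enzyme that activates pro-MMP2 on the cell surface, ranged from 141 CPM in MC-like cells to 369.5 CPM in YAP-high/IEG-high cells, with 330 CPM (285 to 380.4) in vFB3-like cells. Mmp23, a membrane protease without a haemopexin domain, stood at 386 and 367.5 CPM in the 2 YAP-high clusters and 356 CPM in FB4-like cells, against 226.5 and 218 CPM in the YAP-low clusters and 86.0 CPM in vFB3-like cells. The proenzyme convertase Pcsk6 was 4.84-fold (4.38 to 5.33) higher in cluster 6 than in all other cells. Among the less abundant MMPs, Mmp11 (stromelysin-3) was at 2.80 CPM and Mmp16 (a membrane-type MMP) at 3.20 CPM in cluster 6, against library levels of 31.9 and 34.4 CPM. Mmp19 was highest in FB4-like cells at 53.1 CPM, and the membrane-anchored Mmp17 reached 17.6 CPM in MC-like cells.

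The stromelysins Mmp3 and Mmp10, which cut proteoglycans, laminin and fibronectin and activate other pro-MMPs, lie 46.4 kb apart on chromosome 9 and were high in different cells. Mmp3 (ENSMUSG00000043613, chromosome 9, 7445822 to 7455975, plus strand) and Mmp10 (ENSMUSG00000047562, chromosome 9, 7502352 to 7510240, plus strand) belong to a run with Mmp13, Mmp12, Mmp8, Mmp27 and Mmp7. The promoters of both are shown because they share a motif of the AP-1 factors, to which Fos belongs, yet were highest in different classes. The sequences are from RefSeq (GRCm38.p6), end at the base before the annotated start, and carry the motif TGANTCA (searched on both strands, a palindromic match counted once) in capitals. For Mmp3 (chr9:7445572-7445821, plus strand) and Mmp10 (chr9:7502092-7502341, plus strand) the motif began 46 and 63 bases before the start.
Mmp3: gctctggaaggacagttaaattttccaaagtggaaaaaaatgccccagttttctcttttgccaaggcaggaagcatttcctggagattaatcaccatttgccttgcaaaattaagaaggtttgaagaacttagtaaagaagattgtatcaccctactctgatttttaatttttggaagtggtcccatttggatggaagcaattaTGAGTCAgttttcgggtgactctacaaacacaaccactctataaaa
Mmp10: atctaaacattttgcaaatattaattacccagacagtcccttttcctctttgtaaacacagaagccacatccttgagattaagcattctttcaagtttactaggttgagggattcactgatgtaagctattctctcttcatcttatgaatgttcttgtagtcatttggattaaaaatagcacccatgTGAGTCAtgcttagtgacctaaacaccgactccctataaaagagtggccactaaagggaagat
The last 100 bases before the start of Mmp13 (chr9:7272414-7272513), Mmp12 (its second start, chr9:7347274-7347373) and Mmp7 (its first start, chr9:7691990-7692089), all on the plus strand, are given beside them.
Mmp13: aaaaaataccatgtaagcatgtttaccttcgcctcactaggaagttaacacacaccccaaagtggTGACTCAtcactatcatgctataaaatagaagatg
Mmp12: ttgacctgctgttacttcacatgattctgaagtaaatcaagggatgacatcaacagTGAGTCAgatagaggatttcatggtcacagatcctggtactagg
Mmp7: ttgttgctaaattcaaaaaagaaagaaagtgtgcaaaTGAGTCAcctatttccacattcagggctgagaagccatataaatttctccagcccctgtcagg
The motif lay 35, 44 and 63 bases before these starts. The windows of Mmp8 and Mmp27, of the first start of Mmp12 and of the second start of Mmp7 did not hold it. It occurred in 7.81% of all 32851 promoter windows (250 bases before to 50 after a start) and in 6 of 37 members with a window, the sixth being Adam19. GGAATG, a motif of the TEAD factors that YAP and TAZ bind, occurred in 14.7% of all windows and in those of Adam19, Adam1a, Adamts13 and Timp1. A match describes the letters only. Mmp13, Mmp12 and Mmp7 had only 22, 1 and 4 UMIs in the library.

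Mmp10 was high in vFB3-like cells. Its level was 1059.5 CPM (977.5 to 1147) there, 43.5 in YAP-low/IEG-low, 58.4 in YAP-high/IEG-low, 3.91 in YAP-low/IEG-high and 7.92 in YAP-high/IEG-high cells, 7.6 in cluster 6, 1.31 in SMC-like and 0.693 CPM in FB4-like cells. The 69 MC-like cells had 0 UMIs, which allows up to 5.28 CPM. The SMC-like and FB4-like levels were below a bound on free RNA (described with Adamdec1) of 3.05 CPM for Mmp10. The vFB3-like level was 47.8-fold (43.2 to 52.9) that of all other cells, and the 45 cells held 37.9% of all Mmp10 UMIs. It was high in both the columns marked M (1160.1 CPM) and F (969 CPM). These are treated as parts of the same library and not as samples. The study's methods describe splitting cells by the transcript Xist and the study gives a pair of mice per genotype group without saying which mice lie behind each mark. After thinning each cell to 5000 UMIs, 75.0% (59.7 to 86.8) of vFB3-like cells had an Mmp10 UMI (93.3% unthinned), against 7.0% and 8.92% in the 2 IEG-low fibroblast clusters (9.43% and 11.6% unthinned) and 0.292% in FB4-like cells (0.861% unthinned). The median depth of vFB3-like cells was 12888 UMIs and that of FB4-like cells 12099. When the M and F columns were integrated before clustering, 2 clusters of 394 and 379 cells had 89.2 and 110.4 CPM of Mmp10 and carried the vFB3 marker P2rx1 at 17.6 and 15.8 CPM, against at most 0.846 CPM in integrated clusters 1 to 4. P2rx1 did not go with Mmp10 throughout, since it stood at 54.5 CPM in the integrated cluster of 69 MC-like cells, which had 0 UMIs of Mmp10, and at 6.57 CPM in that of 77 SMC-like cells, with 1.31 CPM of Mmp10. The vFB3-like cells had 315 CPM of P2rx1. The vFB3 marker Tacr1 was at 0 and 0.205 CPM in the integrated clusters of 394 and 379 cells, against 55.0 CPM in vFB3-like cells. Itga8 was at 10.1 and 28.7 CPM in the same 2 clusters, against 574.5 CPM in vFB3-like cells.

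Mmp3 was highest in FB4-like cells instead. It stood at 211.6 CPM (202 to 221.5) in FB4-like cells, 64.5 and 71.1 CPM in the YAP-low clusters, 13.4 and 15.6 CPM in the YAP-high clusters, 32.8 CPM in SMC-like cells, 8.4 CPM in cluster 6 and 5.28 CPM in MC-like cells. The 45 vFB3-like cells had 1 UMI. The vFB3-like and MC-like levels were below the bound on free RNA of 6.07 CPM for Mmp3. FB4-like cells had 5.64-fold (5.26 to 6.06) the level of all other cells. This level rested on few cells. The 70 of 697 FB4-like cells with most Mmp3 UMIs, at least 6 each, held 90.1% of the Mmp3 UMIs of the class, and 1 cell had 131. Sorting cells by a gene in this way always gives an uneven split, but over the 30 members with at least 1000 UMIs the tenth of cells with most UMIs held 22.4% to 51.2% in the class where each was highest, apart from Mmp3. Those 70 cells had 1767 CPM of Mmp3 against 23.6 CPM in the other 627, at similar median depths of 12592 and 12077 UMIs. They had 91.0 CPM of Timp3 against 276 CPM in the others and 49.2 CPM of Adamts9 against 28.0 CPM, while Timp2 differed little, at 1632 and 1575 CPM. After thinning, 18.2% (15.4 to 21.3) of FB4-like cells had an Mmp3 UMI (22.2% unthinned), 8.8% and 8.4% of the YAP-low clusters and 1.98% and 3.0% of the YAP-high clusters (11.2%, 12.5%, 4.05% and 4.23% unthinned).

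**Figure D2:**
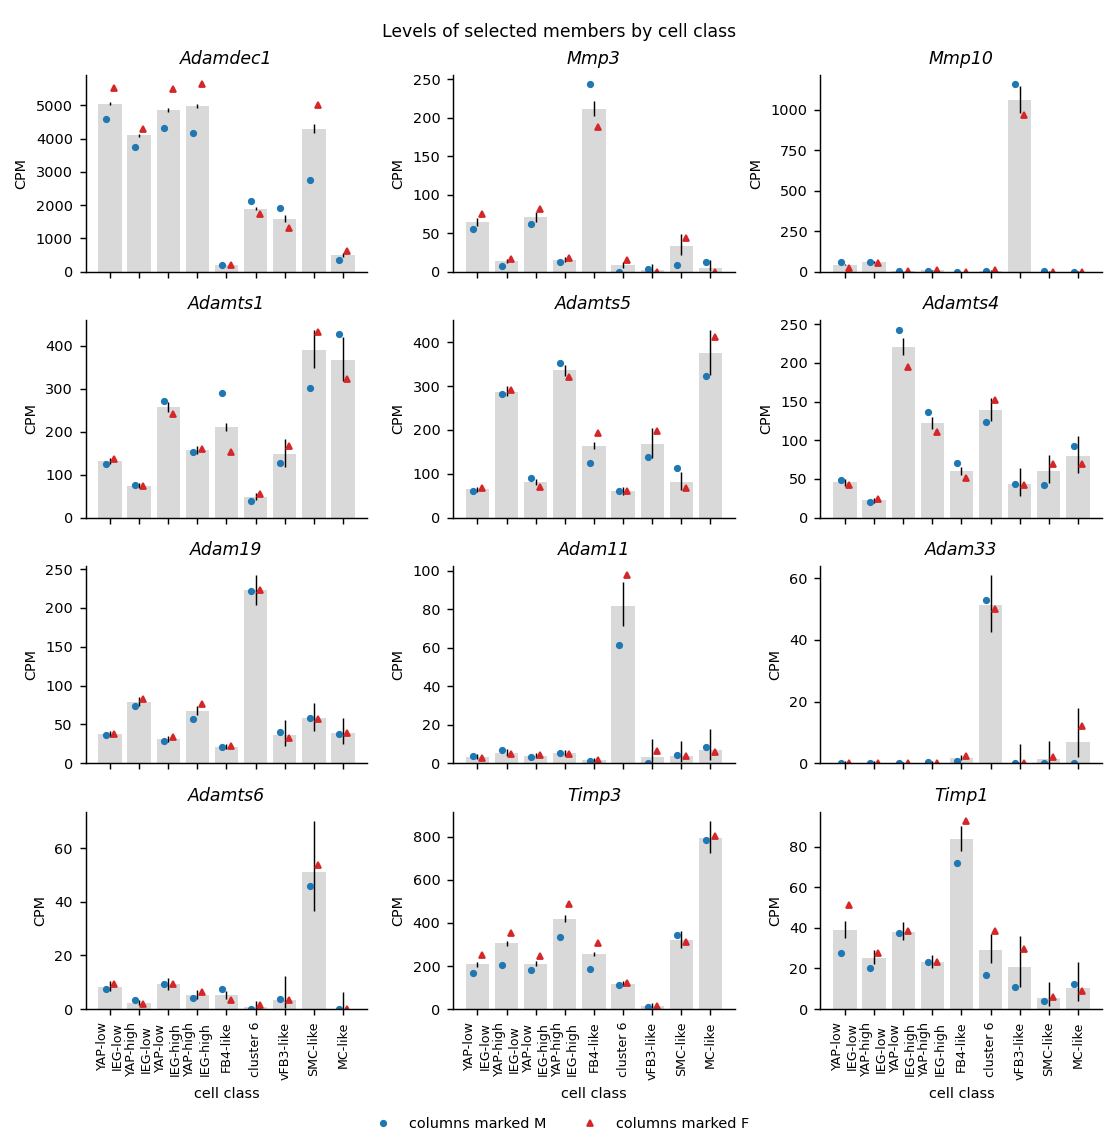
Levels of 12 members by class, in CPM. Bars give the class level with its exact 95% interval and the points the columns marked M and F. Mmp10 in vFB3-like cells, Mmp3 in FB4-like cells, and Adam33 and Adam11 in cluster 6 each rose above all other classes.

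Adamdec1 (ENSMUSG00000022057, chromosome 14, 68563380 to 68582095, minus strand), a secreted ADAM relative known from the gut mucosa, separated the 4 fibroblast clusters from FB4-like cells. Its level was 5043, 4104, 4858 and 4982 CPM in the YAP-low/IEG-low, YAP-high/IEG-low, YAP-low/IEG-high and YAP-high/IEG-high clusters. It was 1898 CPM in cluster 6, 1599.6 in vFB3-like, 4302 in SMC-like, 506.7 in MC-like and 198 CPM in FB4-like cells. The level in FB4-like cells was under a bound on free RNA of 314 CPM, computed as 8.64% of the library level from Y-linked UMIs in cells rich in Xist, so the 44.5% of thinned FB4-like cells with an Adamdec1 UMI (65.6% unthinned) is not read as expression. Their difference from all other cells, 22.3-fold as counted, is therefore only a lower bound. In SMC-like cells Adamdec1 differed between the columns marked M (2760 CPM) and F (5006 CPM).

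Among the ADAMs, the sheddases Adam10 (which releases Notch and other receptors) and Adam17 (which releases TNF and EGF receptor ligands) were found in all classes. Adam10 ranged from 31.4 CPM in FB4-like to 77.4 CPM in vFB3-like cells and Adam17 from 14.4 CPM in SMC-like to 36.9 CPM in MC-like cells. The membrane proteases Adam9 (30.2 to 92.9 CPM) and Adam15 (20.6 to 68.8 CPM) were likewise found in all of them. Adam10 was not called in any comparison. Adam17 lay near the threshold, at 0.509 (0.254 to 0.914) of the level of all other cells in SMC-like cells and 0.512 (0.359 to 0.710) in cluster 6. It was called lower in both after subtracting the free RNA bound and in the F columns alone, in SMC-like cells also at a clustering resolution of 0.2 and with cells of 8000 to 14000 UMIs, and in cluster 6 also with cells of at most 5% mitochondrial UMIs. Adam15 was called lower in vFB3-like cells, where it stood at 20.6 CPM. At a ratio of 0.498 it too lay at the threshold, and it was not called in the F columns or with the highest 4% of Scrublet (doublet) scores left out.

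Cluster 6 carried a set of other ADAMs. Adam33 (ENSMUSG00000027318, chromosome 2, 131050591 to 131063814, minus strand), a metalloprotease of mesenchymal cells, stood at 51.2 CPM there and at 0 to 7.04 CPM in every other class. Its level was 97-fold (61.9 to 158) that of all other cells, and 128 of its 151 UMIs lay in the 205 cells. At its level in the other cells only 1.32 UMIs would be expected in cluster 6, so it passed the filter of 5 expected UMIs only through the class where it is high. Thinned, 16.5% (11.6 to 22.4) of cluster 6 had an Adam33 UMI (31.7% unthinned), against 0.101% of the 4 fibroblast clusters. Adam11 (ENSMUSG00000020926, chromosome 11, 102761439 to 102780262, plus strand), which lacks the catalytic zinc site, was at 82.0 CPM in cluster 6 and at most 7.04 CPM elsewhere, a ratio of 21.1 (17.2 to 26.1). Adam19 (meltrin beta, ENSMUSG00000011256, chromosome 11, 46055992 to 46147343, plus strand) was the most abundant, at 222.5 CPM against 21.6 to 79.4 CPM in the other classes, or 4.70-fold (4.27 to 5.17) higher. Adam12 (meltrin alpha) was 6.47-fold (4.56 to 9.05) higher in cluster 6, at 19.6 CPM. These 4 ADAMs were the members called higher in cluster 6 together with Adamts15. The noncatalytic Adam23 lay with FB4-like cells instead, at 4.74 CPM from 41 of its 56 UMIs. It too passed the filter only through that class (3.47 UMIs expected at the level of the other cells).

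The ADAMTS enzymes that cut versican and aggrecan each had a profile of their own. Adamts1 and Adamts5 lie 53.1 kb apart on chromosome 16 (Adamts1, ENSMUSG00000022893, 85793827 to 85803113; Adamts5, ENSMUSG00000022894, 85856173 to 85901828, both on the minus strand). Adamts5 stood at 64.1 and 80.8 CPM in the YAP-low clusters, 287.5 and 336 CPM in the YAP-high clusters, 164 in FB4-like cells, 60.03 in cluster 6, 169 in vFB3-like, 81.4 in SMC-like and 375 CPM in MC-like cells. Adamts1 stood at 131 and 257 CPM in the YAP-low clusters (IEG-low, then IEG-high), 74.2 and 157 CPM in the YAP-high clusters, 211 in FB4-like cells, 48.4 in cluster 6, 148 in vFB3-like, 390.1 in SMC-like and 366 CPM in MC-like cells. Both neighbours were high in MC-like cells and low in cluster 6, but among the 4 fibroblast clusters Adamts5 ranked as Amotl2 did and Adamts1 as Fos did. The 250 bases before the start of Adamts1 (chr16:85803114-85803363, minus strand, RefSeq GRCm38.p6) held neither TGANTCA nor GGAATG, and are shown for comparison with the stromelysin promoters.
Adamts1: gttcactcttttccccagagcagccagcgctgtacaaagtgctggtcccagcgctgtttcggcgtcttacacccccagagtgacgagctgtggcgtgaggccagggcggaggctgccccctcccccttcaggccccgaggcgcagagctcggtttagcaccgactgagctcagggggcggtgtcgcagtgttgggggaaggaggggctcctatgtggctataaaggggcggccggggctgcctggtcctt
Adamts4 (ENSMUSG00000006403, chromosome 1, 171250421 to 171260637, plus strand) was at 221 CPM in YAP-low/IEG-high and 122 CPM in YAP-high/IEG-high cells, against 45.4 and 22.4 CPM in the IEG-low clusters, 140 CPM in cluster 6 and 43.0 to 79.2 CPM in the remaining classes. Adamts9 was highest in vFB3-like cells (177 CPM, 145 to 215) and ranged from 24.96 CPM in SMC-like to 140 CPM in YAP-high/IEG-high cells elsewhere. Adamts15 was at 35.6 CPM in cluster 6 and had 0 UMIs in vFB3-like cells, and the rare Adamts8 (84 UMIs) reached 9.19 CPM in SMC-like cells. Versican itself (Vcan), their substrate, was at 118 CPM in the YAP-high and 220.0 CPM in the YAP-low clusters.

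The other ADAMTS genes act on procollagen, microfibrils and further substrates. Adamts2, which trims procollagen, ranged from 42.0 CPM in cluster 6 to 205 CPM in FB4-like cells. Adamts10, which binds fibrillin, ranged from 42.8 to 105.7 CPM and Adamts12 from 16.8 to 49.3 CPM. Adamts19 stood at 80.1 and 56.3 CPM in the YAP-low clusters and had 0 UMIs in vFB3-like cells, at least 8.38-fold lower than in all other cells. Adamts17 (4.0 to 22.7 CPM) and Adamts7 (1.72 to 21.3 CPM) were lower throughout. Adamts6 (ENSMUSG00000046169) was at 51.2 CPM (36.4 to 70.0) in SMC-like cells from 39 UMIs and at 0 to 9.27 CPM elsewhere; it missed the filter of 5 expected UMIs there, so it has no call. Thinned, 23.7% of SMC-like cells had an Adamts6 UMI (36.4% unthinned), against 3.14% of the 4 fibroblast clusters. In the same way Adamts13 (ENSMUSG00000014852), which cuts von Willebrand factor, had 16 of its 27 UMIs in MC-like cells, a level of 28.2 CPM (16.1 to 45.7) against 0 to 3.44 CPM elsewhere. The interval of each lay above those of the other 8 classes, while the order of the other classes could not be read from so few UMIs.

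The ADAMTS-like genes have no protease domain and bind matrix and microfibrils. Adamtsl2 lay with the 4 fibroblast clusters (32.8 to 65.8 CPM, against 1.76 to 22.3 CPM elsewhere). Adamtsl3 lay with FB4-like cells at 81.8 CPM, 4.85-fold (4.35 to 5.40) above all other cells. Adamtsl1 was at 84.2 CPM in FB4-like, 91.5 in MC-like and 61.2 CPM in cluster 6, and at 3.94 to 34.5 CPM in the rest. It overlaps Sh3gl2 on the same strand, so its counts are uncertain. Adamtsl4 (18.8 to 56.2 CPM) and Adamtsl5 (4.4 to 45.7 CPM) were lowest in cluster 6.

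Timp2, which blocks MMPs and also bridges MMP14 and pro-MMP2, was the main inhibitor in every class but MC-like cells. Its level was 682 and 808 CPM in the YAP-low clusters, 1223 and 1535 CPM in the YAP-high clusters, 1581 CPM in FB4-like cells, and 526 to 677 CPM in the other classes. It overlaps Cep295nl on the same strand. Timp3, which stays bound to the matrix and also blocks ADAM17 and ADAMTS4 and ADAMTS5, was highest in MC-like cells at 795 CPM (724 to 872). It was at 420 CPM in YAP-high/IEG-high cells, 118 to 322 CPM in the other classes except vFB3-like cells, and at 13.8 CPM from 8 UMIs in vFB3-like cells. This last value was below the free RNA bound of 23.7 CPM. In the 4 fibroblast clusters together, Timp3 was at 217 CPM in the columns marked M and 342 CPM in those marked F. Timp1, an inducible inhibitor, was at 83.7 CPM in FB4-like cells and at 5.25 to 38.9 CPM in all others, and Timp4 had 27 UMIs in all.

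TIMP UMIs per UMI of the MMP, ADAM and ADAMTS genes differed between classes. All ADAM genes are counted as enzymes here, also the noncatalytic Adam11 and Adam23. The ratio was 0.438 (0.427 to 0.450) in YAP-low/IEG-low, 0.431 (0.420 to 0.442) in YAP-low/IEG-high, 0.703 (0.688 to 0.719) in YAP-high/IEG-low and 0.738 (0.722 to 0.753) in YAP-high/IEG-high cells. It was 0.858 (0.840 to 0.876) in FB4-like cells, 0.432 (0.410 to 0.455) in cluster 6, 0.591 (0.537 to 0.648) in SMC-like, 0.709 (0.646 to 0.778) in MC-like and 0.202 (0.179 to 0.227) in vFB3-like cells. FB4-like cells had most inhibitor message per enzyme message and vFB3-like cells least, with Mmp10 the most abundant of the enzymes counted there. With Adamdec1 counted as an enzyme, the ratio was 0.128 in vFB3-like and 0.130 in YAP-low/IEG-low cells, so vFB3-like cells were then not set apart, while FB4-like cells stood at 0.788 and MC-like cells at 0.560. Timp2 made up 65.0% to 93.9% of TIMP UMIs, except in MC-like cells, where it made up 40.5%. The library value was 0.622, or 0.241 with Adamdec1. In SMC-like cells the ratio was 0.737 in the M and 0.536 in the F columns. With vFB3-like cells set by a marker gate, which took 434 cells in place of the 45 of the cluster, the ratio was 0.465. These are ratios of transcripts and not of protein or activity.

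**Figure D3:**
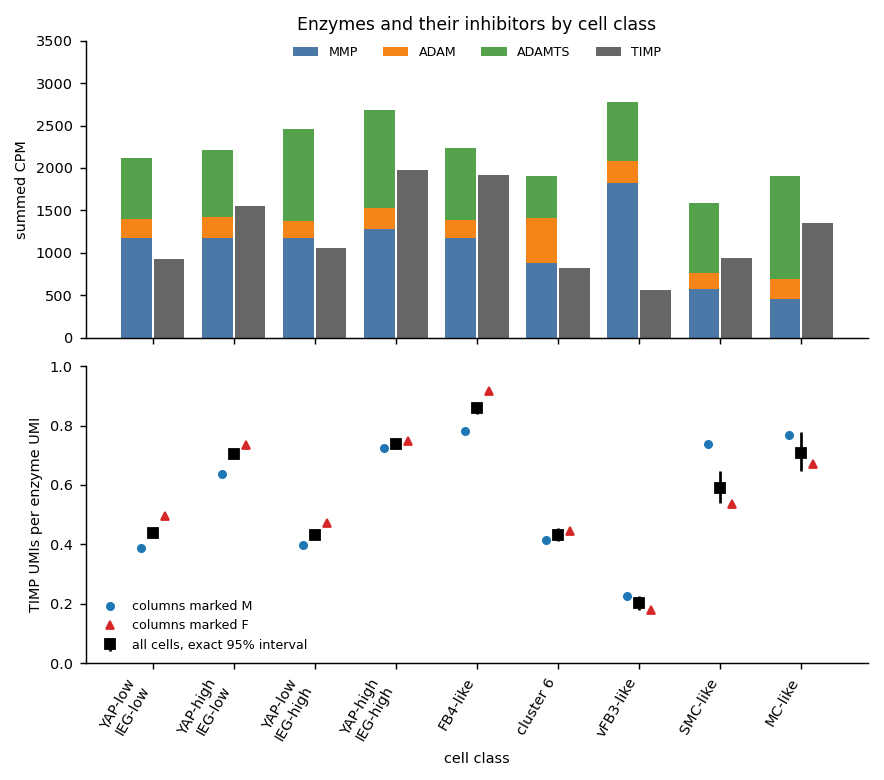
Upper panel, summed CPM of MMP, ADAM and ADAMTS genes (stacked bars) and of TIMP genes (grey bars) in each class. Lower panel, TIMP UMIs per UMI of these enzymes, with squares for all cells with exact 95% intervals and points for the columns marked M and F. FB4-like cells were highest at 0.858 and vFB3-like cells lowest at 0.202.

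Each class was also set against all other cells for members with at least 5 expected UMIs in the smaller set. A low member can pass this filter only through the set where it is high. Of the members called higher, this held for Adam23 in FB4-like cells, Adam33 in cluster 6 and Mmp8 in the 4 fibroblast clusters. Of those called lower it held for 1 of 9 in FB4-like cells, 2 of 19 in cluster 6, 9 of 17 in vFB3-like, 6 of 14 in SMC-like and 6 of 13 in MC-like cells and 3 of 8 in the 4 fibroblast clusters. The shares of all genes count such genes too. FB4-like cells had 5 of 47 members higher (Mmp3, Adamtsl1, Adamtsl3, Timp1 and Adam23, or 4 without Adam23) against 4.31% of all genes, and 9 lower against 8.86%. The lower members were Adamdec1, Mmp10, Adamts9, Adamtsl2, Adam19, Adam11, Adam12, Adam33 and Adamts13, the last with 0 UMIs and at least 2.08-fold lower. Adam33 counts as lower against all other cells with cluster 6 (51.2 CPM) among them. Its 1.73 CPM in FB4-like cells was above its levels in the 4 fibroblast clusters (0 to 0.128 CPM), while SMC-like cells (1 UMI) and vFB3-like cells (0 UMIs) had too few UMIs to be ranked against it. Cluster 6 had 5 of 39 higher, or 4 without Adam33, against 5.63% of all genes, and 19 lower, against 12.0%. The lower members took in Mmp11 (0.0834-fold), Mmp16, Adamts19, Mmp3, Adamtsl3, Adamts1, Adamts2 and Adamts5, and the median log2 ratio was -0.98 for members and 0.02 for all genes. vFB3-like cells had 2 of 33 higher (Mmp10 and Adamts9) against 5.98%, and 17 lower against 11.5%, among them Timp3, Mmp3, Adamdec1, Timp2 and Mmp23. The median log2 ratio in vFB3-like cells was -0.98 for members and 0.11 for all genes. Each cell was instead given to the marker list with most UMIs per marker. These gates took 553 cells in place of 205 for cluster 6 and 434 in place of 45 for vFB3-like cells. The calls then fell to 8 in cluster 6 and 11 in vFB3-like cells, of which 7 and 8 were among those above. Cluster 6 lost 17 of its 19 lower calls, among them each lower member named above, and none of its higher calls. vFB3-like cells lost Adamts9 and 10 of 17 lower calls, among them Timp3, Adamdec1, Timp2 and Mmp23, while Mmp3, which rests there on 1 UMI and passed the filter only through the other cells, was kept. Adamts9 was also not called higher in vFB3-like cells of the F columns alone. With cells of at most 5% mitochondrial UMIs, which left 38 cells of cluster 6, Adam19 kept its call, at 5.16-fold. Adam11, Adam12, Adam33 and Adamts15 then had fewer than 5 expected UMIs and so no call. On 20, 29 and 21 UMIs in those cells, Adam11 was at 13.8, Adam33 at 112 and Adamts15 at 4.91 times the level of the other cells, while Adam12, with 1 UMI, was at 0.855 times.

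The contractile classes had fewer cells. The median log2 ratio for members and for all genes was -0.935 and 0.008 in SMC-like cells, and -0.42 and -0.02 in MC-like cells. SMC-like cells had 1 of 35 members higher (Adamts1, 2.44-fold, 2.17 to 2.74) against 4.61% of all genes, and 14 lower against 10.0%, among them Timp1, Mmp23, Adamts2, Adamts5 and Adamts9. With cells of at most 5% mitochondrial UMIs 9 SMC-like cells were left and the total fell from 15 to 5, of which 4 were among the 15. Adamts1 was not called higher in the M columns, where 0 members were, nor with the marker gates. MC-like cells had 4 of 33 higher against 6.56%: Timp3 (2.98-fold, 2.70 to 3.27), Adamtsl1 (2.60-fold, 1.93 to 3.43), Adamts1 (2.27-fold, 1.97 to 2.61) and Adamts5 (2.12-fold, 1.84 to 2.43). They had 13 lower against 11.1%, among them Mmp2, Timp2, Adamdec1 and Mmp23. Their median depth was 6793 UMIs, and between 8000 and 14000 UMIs per cell the total was 9 instead of 17. Adamtsl1 was no longer called higher there. Adamts5 lost its higher call in the M columns and with cells of at most 5% mitochondrial UMIs. For Adamts5, 7 of the 69 cells held 51.2% of the UMIs of the class. The MC marker gate took 780 cells in place of 69. With the gates 5 members were called, 0 of them higher, so all 4 higher calls were lost, and 2 of the 17 calls were kept. The 4 fibroblast clusters together had 5 of 50 higher (Adamdec1, Adamtsl2, Adamts17, Mmp11 and Mmp8) against 3.47% and 8 lower (Mmp3, Adamtsl1, Adamtsl3, Adam11, Adam33, Adam23, Adam22 and Adamts13) against 6.55%. Mmp3 and Adamtsl3 count as lower against all other cells with FB4-like cells among them, where they were 5.64-fold and 4.85-fold higher. Both were also called lower in cluster 6, vFB3-like, SMC-like and MC-like cells. Adam11 counts as lower against all other cells with cluster 6 among them, where it was 21.1-fold higher. With the marker gates 0 members were higher, so all 5 higher calls were lost, Adamdec1 included. Of the 8 lower calls 6 were kept, while Mmp3 and Adamtsl3 were lost.

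Between YAP-high and YAP-low fibroblast clusters, 6 of 51 members were higher, against 3.55% of all genes, and 7 were lower, against 5.12%. Adamts5 was 4.32-fold (4.05 to 4.60) higher in YAP-high cells, by 4.48-fold among IEG-low and 4.16-fold among IEG-high cells, and by 4.33-fold in the M and 4.39-fold in the F columns. Thinned, 58.8% and 68.8% of cells in the YAP-high clusters had an Adamts5 UMI against 21.9% and 25.9% in the YAP-low clusters (79.1%, 82.8%, 34.1% and 42.0% unthinned). Adamts9 was 2.36-fold (2.18 to 2.56) and Adam19 2.13-fold (1.93 to 2.36) higher, and the rare Adamts8 5.25-fold (2.43 to 12.9) on 42 and 8 UMIs. These 4 passed 2-fold at both IEG levels, while Adam19 was at 1.96-fold in the M columns and also lost its call with cells of 8000 to 14000 UMIs. Mmp8 (17 and 4 UMIs) and Adam22 (8 and 3 UMIs) were the others, and the interval of Adam22 included 1. Both passed the filter only through the YAP-high cells.

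In the other direction, Mmp3 in YAP-high cells was 0.213 (0.185 to 0.246) of its YAP-low level, Adamts15 0.158 (0.116 to 0.213), Adamts19 0.339 (0.301 to 0.381) and Adamtsl3 0.358 (0.297 to 0.429). These 4 were lower at both IEG levels and in both the M and the F columns, but Adamts19 was not called at a clustering resolution of 1.0. Adamts6 (0.427, 0.312 to 0.579) passed in M and in F but not among IEG-high cells, where it was at 0.579. It was not called at a resolution of 1.0, with nothing regressed out or with cells of 8000 to 14000 UMIs. Adam12 (0.493, 0.329 to 0.729), which lost its call under these 3 alternatives and also at 5% mitochondrial UMIs, in M and with M and F integrated, and Adam23 (0.0714 on 1 and 14 UMIs, which passed the filter only through the YAP-low cells) completed the list. Mmp10 was not called in the main comparison. Its ratio was 0.944 in the M and 2.41 in the F columns, with 60.6 CPM in M and 25.03 CPM in F of the YAP-low/IEG-low cluster. Among IEG-low cells the ratio was 1.34 and among IEG-high cells 2.02. Mmp10 was called higher in YAP-high cells in the F columns, with nothing regressed out and with cells of at most 5% mitochondrial UMIs. Timp2 (1.85-fold, 1.81 to 1.89), Timp3 (1.72-fold) and Mmp23 (1.69-fold) stayed under 2-fold. The summed immune markers moved with this comparison, at 38.7 and 29.0 CPM in the YAP-high clusters and 12.1 and 12.7 CPM in the YAP-low clusters, mostly Lyz2, and their part in it was not tested.

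Between IEG-high and IEG-low fibroblast clusters, 6 of 51 members were higher, against 5.31% of all genes, and 1 was lower, against 2.16%. Adamts4 was 5.02-fold (4.59 to 5.50) higher in IEG-high cells, by 4.86-fold among YAP-low and 5.44-fold among YAP-high cells, and by 5.21-fold in M and 4.68-fold in F columns. Thinned, 53.7% and 39.3% of cells in the IEG-high clusters had an Adamts4 UMI against 16.5% and 8.22% in the IEG-low clusters (71.8%, 58.2%, 26.7% and 20.9% unthinned). Adamts1 was 2.01-fold (1.89 to 2.13) higher, at 1.96-fold among YAP-low and 2.12-fold among YAP-high cells, so it lay at the threshold. Mmp10 went the other way, at 0.117 (0.0931 to 0.145) of its IEG-low level, with 0.0900 and 0.136 at the 2 YAP levels and 0.0971 and 0.137 in M and F. After subtracting the free RNA bound the ratio was 0.0604. The vFB3 marker P2rx1 was at 8.27 and 8.88 CPM in the IEG-low and 0.653 and 0.894 CPM in the IEG-high clusters (YAP-low, then YAP-high). Fhl2 was at 208.7 and 316.8 against 72.3 and 147.5 CPM, and Itga8 at 5.10 and 16.5 against 0.392 and 4.72 CPM. Tacr1 was at most 0.115 CPM in these clusters. The part of vFB3 markers in the Mmp10 difference was not tested. Mmp3, with the same promoter motif, was at 1.10 (0.986 to 1.22). The other higher members were rare: Adam30 (10 and 1 UMIs), Adam4 (18 and 7), Adamts8 (33 and 17) and Adam22 (8 and 3), of which Adam30 and Adam22 passed the filter only through the IEG-high cells. With nothing regressed out before clustering, and when M and F were integrated, 3 of these 7 calls were kept, and Adamts1, Adam4, Adam22 and Adam30 lost theirs. Fos set the names of these clusters and is not itself a result. The study states that cell dissociation could itself raise immediate early genes, and that Fosb+ cells were also detected in vivo. The part of dissociation in these differences was not tested.

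**Figure D4:**
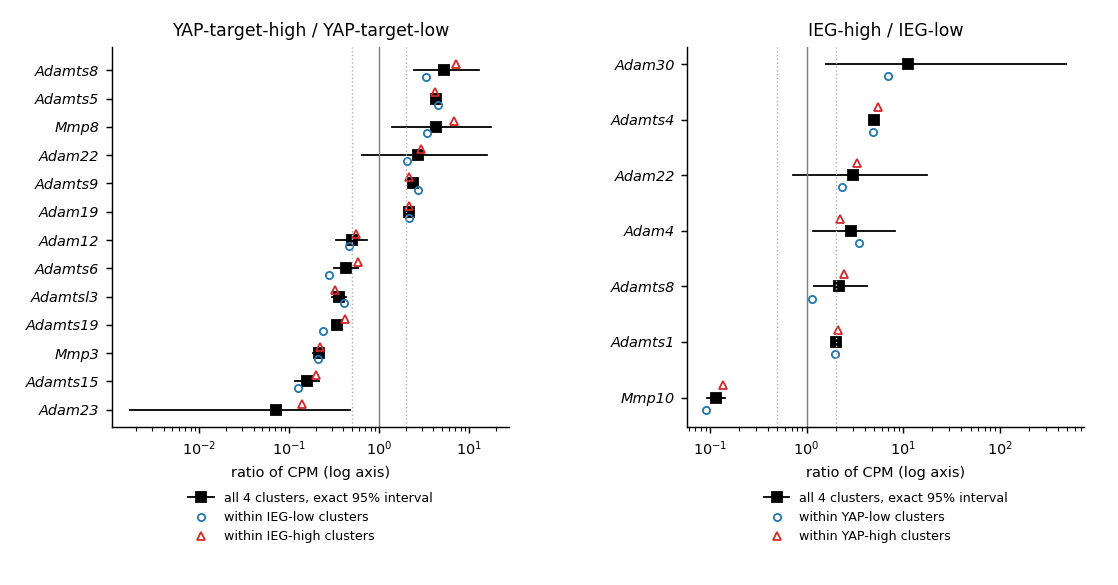
Ratios of CPM of the called members between YAP-high and YAP-low (left) and IEG-high and IEG-low (right) fibroblast clusters, on a log axis. Squares give all 4 clusters with exact 95% intervals, and open symbols the ratio at each level of the other axis. Adamts5 at 4.32 and Adamts4 at 5.02 have narrow intervals, while Adam30 and Adam22 rest on few UMIs.

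Genes that act with the members, from a list of 26 of which 25 had a row, were counted in the same way. Nothing is read from counts of 1 or 2, and the shares of all genes called are those given for the same comparisons above. In YAP-high cells 1 of 20 was higher, the microfibril gene Fbn2 (6.77-fold, 5.11 to 9.10), and 1 lower, the proteoglycan Spock2 (0.243, 0.208 to 0.283). In IEG-high cells 1 of 20 was higher, Hbegf, a growth factor that ADAM17 sheds (6.84-fold, 4.01 to 12.4), and 0 were lower. FB4-like cells had 1 of 20 higher (Spock2) and 3 lower (Rhbdf2, a partner of ADAM17, and its substrates Areg and Ereg). Ereg was at 29.3 CPM there and 151 CPM in the 4 fibroblast clusters. Cluster 6 had 2 of 19 higher (Pcsk6 and Fbn2) and 6 lower, among them Reck, a membrane inhibitor of MMPs, at 20.01 CPM. vFB3-like cells had 1 of 16 higher (Fbn2) and 7 lower, SMC-like cells 2 (Areg and Tspan5) and 4, MC-like cells 1 (Tspan17) and 6, and the 4 fibroblast clusters together 2 of 21 (Ereg and Rhbdf2) and 3.

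The remaining members were near the limit of detection. Mmp9 (gelatinase B) had 11 UMIs, Mmp15 28, Mmp27 89, Mmp28 13, Adam8 33, Adam1a 7, Adam21 6, Adam28 6, Adam32 6, Adamts18 5 and Adamts20 16. Adam5 and Adam32 lie next to Adam9, and Adam28 next to Adamdec1, without matching its level. Apart from Adam5, described next, differences of these members between classes could not be read at this depth. Adam5 had 129 UMIs and levels of 0 to 5.25 CPM, and its lower call in cluster 6 rests on 2 UMIs and passed the filter only through the other cells.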

How the data were processed

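Single-cell 3′ RNA libraries (10x Chromium v3) were made from sorted stromal cells of 4 samples, and 1 of them, LATS1/2 KO 1w, was used, while the WT and LATS1/2 KO 2w libraries were not analysed here. Per the submitters' processing notes, Cell Ranger 3.0.2, Seurat 3.0.1 and the build mm10 were used. Per their methods, the authors kept cells by detected genes and mitochondrial share, and removed immune and endothelial cells. The authors deposited normalized values on a natural log scale, of UMIs per 10000 of the cell plus 1. UMIs were read back (100.0% whole multiples, tolerance 0.001) and summed per class as CPM, with exact Poisson, conditional binomial and Clopper-Pearson intervals. A count of 0 was read as at most 3 counts.

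Cells were clustered with Seurat 5.3.0 in R 4.3.3 (2000 variable genes without the members, 30 components, resolution 0.5, UMI count and mitochondrial percent regressed out). A cluster was named when at least 3 markers and most of a list were met (at least 10% of cells and 2-fold over the median cluster). Cluster 6 met this rule for FB5 and was left with its number because of its leading genes Kcnj8 and Abcc9. No doublet was removed. Scrublet (scanpy 1.11.5) marked 8 cells or 0.195%, and whether it worked was not tested, so its marks were not used. Per their methods, the authors had excluded doublets at sorting and cells with very many detected genes. Shares were taken after thinning to 5000 UMIs, which left out 94 cells. The members, marker lists and partner genes were chosen with earlier results of these data known. Named were members with at least 1000 UMIs, and of the others the 10 with the largest fold in each fibroblast comparison and the 3 in each class, and the remaining members by their UMIs. The split of FB4-like cells by Mmp3, Adamts6 and Adamts13 in their highest class were chosen after their values were seen. Genes and coordinates are from GENCODE M21 (mm10). Scripts were tested on simulated data.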

Additional observations from a re-analysis of the deposited data

How the results depend on the processing

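No paired analysis was possible because only 1 library was analysed here. Called members (higher plus lower) moved as follows. With a fold of at least 1.5 there were 27 in FB4-like cells (14 in the report), 27 in SMC-like cells (15), 23 in the 4 fibroblast clusters (13), 31 for YAP (13) and 13 for IEG (7). With a fold of at least 3 there were 12 in vFB3-like cells (19), 6 in SMC-like cells, 9 in MC-like cells (17), 6 for YAP and 4 for IEG. Without the filter on expected UMIs there were 24 in FB4-like cells, 42 in cluster 6 (24), 43 in vFB3-like, 40 in SMC-like and 42 in MC-like cells, 20 in the 4 fibroblast clusters and 12 for IEG, and with 20 expected UMIs 4 for IEG. With classes from marker gates there were 8 in cluster 6, 11 in vFB3-like, 8 in SMC-like and 5 in MC-like cells and 8 in the 4 fibroblast clusters. Cells with at most 5% mitochondrial UMIs gave 5 in SMC-like cells, and cells of 8000 to 14000 UMIs gave 9 in MC-like cells. The M columns alone gave 8 for YAP and the F columns alone 4 for IEG. No call changed direction under any alternative, but similar totals held different members. For IEG 3 of 7 calls were kept with nothing regressed out, with M and F integrated and in M alone, and 5 at resolution 1.0. For YAP 10 of 13 were kept with nothing regressed out and 9 at resolution 1.0. At 5% mitochondrial UMIs 14 of 24 were kept in cluster 6, 4 of 15 in SMC-like cells and 7 of 13 in the 4 fibroblast clusters. With gates 7 of 24 were kept in cluster 6, 8 of 19 in vFB3-like, 6 of 15 in SMC-like and 2 of 17 in MC-like cells. The TIMP ratio of FB4-like cells (0.858) was 0.773 in cells of 8000 to 14000 UMIs, 0.783 in M, 0.916 in F, 0.880 after subtracting free RNA, 0.839 with gates and 0.827 as a mean of cells. That of vFB3-like cells (0.202) was 0.170 at 5% mitochondrial UMIs, 0.239 at 8000 to 14000 UMIs, 0.178 in F, 0.173 after subtracting free RNA and 0.465 with gates. That of the 4 fibroblast clusters (0.583) was 0.609, 0.572, 0.522 in M, 0.634 in F, 0.593 with gates and 0.557 as a mean of cells. Of 153 main values under alternatives, 109 stayed within their bounds. Levels of 48 named members left theirs in 109 of 550 recomputations and shares of cells in 71 of 96. The causes were not tested. The IEG comparison could not be made at resolution 0.2, where the IEG levels merged, nor YAP and IEG under marker gates. Depth limits the 22 members under 100 UMIs.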

Other observations

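The IEG or YAP ratios of 4 members ran in opposite directions in 2 sets of cells, each with an interval that excluded 1. YAP-high cells had 0.814 of the YAP-low level of Adamdec1 among IEG-low cells and 1.03 among IEG-high cells, and IEG-high cells had 0.963 of the IEG-low level of Adamdec1 among YAP-low cells and 1.21 among YAP-high cells. The IEG ratio of Adamts17 was 0.795 among YAP-low and 1.36 among YAP-high cells. The IEG ratio of Timp1, which is on the X chromosome, was 1.25 in the columns marked M and 0.802 in those marked F, and that of Mmp23 was 1.10 and 0.908. The differences were not tested.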
